A study of Homo sapiens with 8 samples.

Results

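Of the 60628 ATAC-seq peaks called in a HepG2 library, 870 had their summit inside a coding exon and away from every gene start. HepG2 cells come from a human liver tumour and keep many features of hepatocytes, and ATAC-seq uses the transposase Tn5 to insert sequencing adapters into accessible DNA. A peak was counted when it lay on chromosomes 1-22, when the base at its summit was translated in a protein-coding gene of GENCODE 44, and when the summit was over 1000 bp from the canonical transcription start site (TSS) of any annotated gene. These coding-exon peaks were 1.47% (interval 1.38 to 1.57%) of the 59106 peaks on chromosomes 1-22. Positions alone chose them, so their heights and sequences were not used in the choice.

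The bulk experiment covered 8 libraries of wild-type HepG2 cells, fixed with 0.1, 0.5, 1 or 5% formaldehyde (FA) and then cryopreserved or flash-frozen. Values come from the peak list of the library with 0.1% FA and cryopreservation, and the other 7 libraries were not used here. Without a replicate of that library no value has an error between replicates, and all intervals are 95% intervals for the counting of peaks or windows within 1 library. As a coarse check of the labelled cell type, 37 of 40 genes for liver transcription factors and 30 of 41 plasma protein genes had a peak at their TSS. It was 5 of 28 for blood cell genes and 11948 of 19103 (62.5%) for all protein-coding genes. Of 39 genes of adult hepatocyte metabolism only 16 had one. All 29 housekeeping genes and 38 of 39 chromatin regulators also had one, so a TSS peak was not particular to liver genes.

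Coding exons carry the protein sequence, and they can also hold binding sites for transcription factors, so that the same bases are read both as codons and as regulatory DNA. Factors known to bind away from promoters include CTCF, a zinc finger protein that anchors chromatin loops, and the liver factors HNF4A, a nuclear receptor, and FOXA, a pioneer factor that can bind its site on a nucleosome. Accessible sites within genes can be enhancers, sites of CTCF or the starts of shorter transcripts.

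The sequences below are those of coding-exon peaks that held a motif of 1 of these factors within 50 bp of the summit. They are the highest such peaks in canonical coding sequence whose 61 bp held no untranslated exon sequence, among the chromosomes for which sequences are given. Each is read from hg38 (GRCh38) on the coding strand of its gene, with the motif in capitals. The CTCF pattern is named here only by its factor. The first 4 peaks lay in C17orf50, in ASTN1, which encodes a protein of neuronal migration, in PIGR, the receptor that carries polymeric antibodies across epithelia, and in ROBO3, an axon guidance receptor.
C17orf50, chr17:35764206-35764266, plus strand: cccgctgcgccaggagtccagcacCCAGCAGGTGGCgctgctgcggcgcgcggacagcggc
ASTN1, chr1:176949209-176949269, minus strand: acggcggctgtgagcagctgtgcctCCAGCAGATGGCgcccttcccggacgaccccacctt
PIGR, chr1:206935645-206935705, minus strand: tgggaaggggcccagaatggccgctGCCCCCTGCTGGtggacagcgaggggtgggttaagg
ROBO3, chr11:124876388-124876448, plus strand: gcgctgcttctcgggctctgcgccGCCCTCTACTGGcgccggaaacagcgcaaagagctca

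In C17orf50 and ASTN1 the CTCF motif read along the coding strand, and in PIGR and ROBO3 along the opposite strand. The fold enrichment at the summit, which is the authors' ratio of its height to the local background, was 23.3 in C17orf50, 21.6 in ASTN1, 20.8 in PIGR and 19.97 in ROBO3. The motif centre lay 33 bp from the summit in C17orf50, 24 bp in PIGR and 16 bp in ROBO3.

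The HNF4A motif was searched as CAAAGTCCA, CAAAGTTCA, CAAAGGTCA or CAAAGGCCA, on both strands. The 3 highest coding-exon peaks with it are shown. PHKB encodes the beta subunit of phosphorylase kinase, which starts glycogen breakdown. DMGDH encodes the mitochondrial dimethylglycine dehydrogenase of choline breakdown, and SORL1 a sorting receptor of the low-density lipoprotein receptor family.
PHKB, chr16:47499753-47499813, plus strand: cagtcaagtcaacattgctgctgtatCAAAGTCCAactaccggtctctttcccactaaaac
DMGDH, chr5:79030856-79030916, minus strand: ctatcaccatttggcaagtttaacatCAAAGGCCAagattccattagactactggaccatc
SORL1, chr11:121554022-121554082, plus strand: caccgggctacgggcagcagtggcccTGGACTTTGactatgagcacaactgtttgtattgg

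The FOXA motif was searched as TGTTTAC or TGTTTGC, also on both strands. The examples lay in SMU1, which encodes a splicing factor, in RILPL1, which encodes a protein that binds Rab GTPases, and in AGT, the gene of the liver-made hormone precursor angiotensinogen.
SMU1, chr9:33048181-33048241, minus strand: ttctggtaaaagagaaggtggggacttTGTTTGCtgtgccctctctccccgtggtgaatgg
RILPL1, chr12:123472567-123472627, minus strand: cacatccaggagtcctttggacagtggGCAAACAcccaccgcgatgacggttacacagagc
AGT, chr1:230703184-230703244, minus strand: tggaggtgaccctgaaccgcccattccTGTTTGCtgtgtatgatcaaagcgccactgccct

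The next sequence is shown for contrast, since its peak was among the 10 highest and held none of the motifs searched. PC encodes pyruvate carboxylase, which begins gluconeogenesis. The base at the summit is in a capital letter.
PC, chr11:66868875-66868935, minus strand: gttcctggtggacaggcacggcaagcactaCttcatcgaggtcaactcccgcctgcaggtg

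Coding-exon peaks were about as high as peaks in introns and lower than peaks at gene starts. Their median fold enrichment was 9.85 (interval 9.36 to 10.2, n = 870). The quartiles were 7.58 and 14.0, and the lowest and highest peaks had 2.98 and 31.6. The 20964 intron peaks had a median of 9.86 (9.76 to 9.94), and the 1977 peaks in other exons of protein-coding genes, meaning untranslated or noncoding exon sequence, had 10.4 (10.0 to 10.7). The 18938 peaks outside protein-coding genes had 9.76 (9.67 to 9.84). Peaks within 1000 bp of a TSS, of which there were 16357, had a median of 14.6 (14.4 to 14.8). The interval of the coding-exon median thus overlapped those of intron peaks and of peaks in other exons, and lay below that of TSS peaks.

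**Figure D1:**
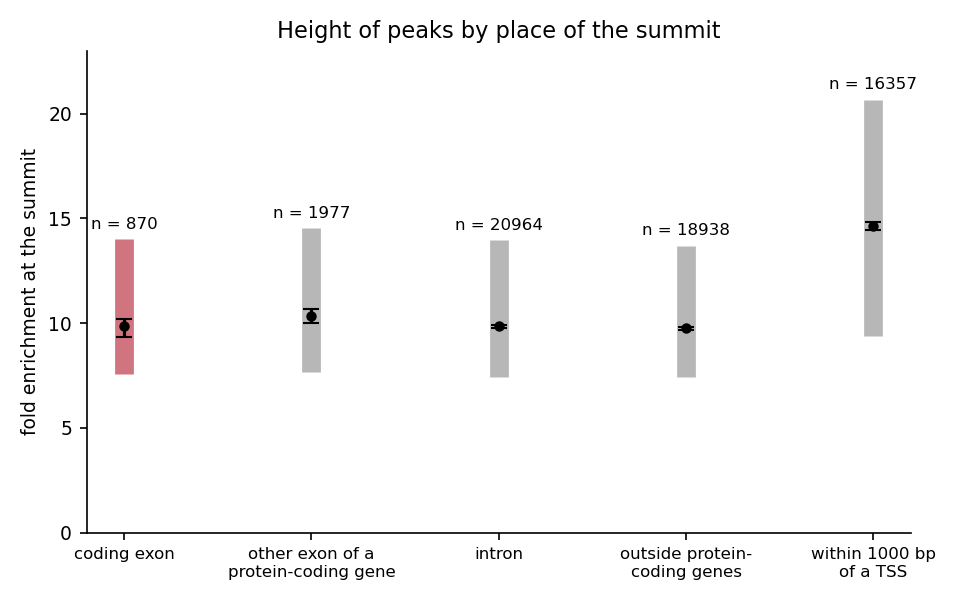
Fold enrichment at the summit (y axis, ratio to local background) of peaks on chromosomes 1-22 by the place of the summit (x axis). Bars span the quartiles, dots are medians and whiskers their 95% intervals; the coding-exon median of 9.85 is level with the intron median of 9.86 and below the TSS median of 14.6.

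The peaks were narrow and rested on few fragments. Their median width was 152 bp (148 to 157), against 160 bp in introns and 235 bp at a TSS, and it ranged from 104 to 713 bp. The number of fragments over each summit, solved from the deposited fold and p-value, had a median of 15 (14 to 15) and ranged from 4 to 196. Intron peaks had a median of 14 fragments and TSS peaks of 34. At most 10 fragments lay over the summit of 261 coding-exon peaks (30.0%), so the lower part of the list is the least certain. The -log10 q-value of the peak caller ranged from 3.10 to 164 and was at least 5 for 846 of the 870.

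The peak density in coding exons was above that in introns. With 870 summits in 30.1 Mb of coding sequence over 1000 bp from a TSS, coding exons had 28.9 peaks per Mb. Introns had 19.0 per Mb, sequence outside protein-coding genes 13.0, and other exons 32.3. Peaks covered 0.528% of coding bases, 0.354% of intron bases and 0.640% of the bases of other exons. How evenly reads could be mapped in these places was not tested.

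Coding-exon peaks lay in GC-rich sequence. In windows reaching 100 bp from the summit on both sides their median GC content was 59.2% (57.7 to 60.2). The 271699 windows centred in coding sequence with no peak within 100 bp of their centre had a median of 48.8%. Intron peaks had 49.3%, peaks in other exons 54.2% and TSS peaks 67.2%. The median number of CpG dinucleotides was 6 at coding-exon peaks, 3 in the coding windows with no peak, 2 at intron peaks and 18 at TSS peaks. Per 1000 coding windows, the number of coding-exon peaks was 0.628 (0.455 to 0.846) below 40% GC, 2.53 from 40 to 50%, 3.30 from 50 to 60% (the intervals were 2.19 to 2.92 and 2.89 to 3.76), 5.20 from 60 to 70%, and 17.3 (14.6 to 20.4) at 70% or more. The count was higher at each step of GC content, with overlapping intervals only for the bins from 40 to 50% and from 50 to 60%, while the median fold enrichment in the same bins ran only from 8.62 to 10.6. The part of amplification or Tn5 sequence preference in this was not tested. Windows of both kinds could also reach past the coding sequence into its flanks. Coding blocks with a summit had a median length of 179 bp and those without one 121 bp. The part of block length in the GC and CpG differences, or in the motif differences below, was not tested.

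**Figure D2:**
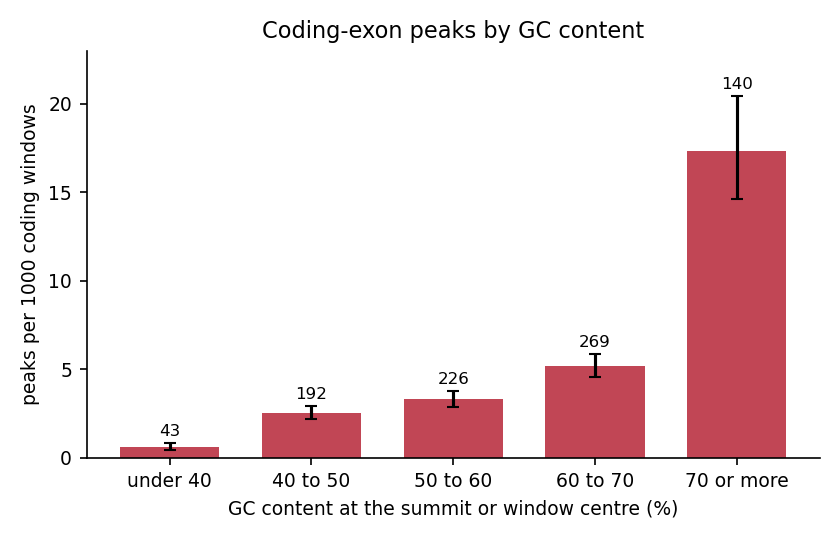
Coding-exon peaks per 1000 windows of coding sequence (y axis) by the GC content of windows reaching 100 bp from the summit or the tile's centre on both sides (x axis, %). Whiskers are exact 95% binomial intervals and the numbers above the bars count the peaks; the value goes from 0.628 below 40% GC to 17.3 at 70% or more.

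The CTCF motif was the one that most set coding-exon peaks apart from coding windows with no peak. It lay within 50 bp of the summit of 65 of the 870 peaks (7.47%, interval 5.81 to 9.42%), against 0.138% of coding windows with no peak, a ratio of 54.1. The difference from those windows was 7.33 percentage points (5.77 to 9.27). Of all peaks on chromosomes 1-22, 5.42% held it, and of intron peaks 5.73%, which coding-exon peaks exceeded by 1.74 points (0.143 to 3.71). Peaks outside protein-coding genes had it at 7.47%, level with coding-exon peaks, and peaks in other exons at 8.90%. Within the middle range of GC content of coding-exon peaks, 49.3 to 66.2%, the share was 10.0% at these peaks and 0.221% in windows with no peak. Intron peaks were not compared within that range. The part of the higher GC content of coding-exon peaks in the excess over intron peaks was not tested. The CTCF peaks had a median fold of 10.9 (9.36 to 13.5), a median GC content of 61.2% and a median width of 143 bp.

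The HNF4A motif was also much more frequent than in coding windows with no peak. It was found at 34 coding-exon peaks (3.91%, 2.72 to 5.42%), against 0.600% of those windows, a ratio of 6.52. All peaks had it at 3.45% and intron peaks at 4.52%. The difference from intron peaks was -0.61 points, with an interval from -1.74 to 0.919 that includes 0. The HNF4A peaks were less GC-rich, with a median of 53.0%, and had a median fold of 9.06 (7.17 to 13.3).

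The FOXA motif was more frequent than in coding windows with no peak and scarcer than at intron peaks. It was present at 45 coding-exon peaks (5.17%, 3.797 to 6.86%), against 2.25% of coding windows with no peak. Of all peaks 9.09% held it and of intron peaks 11.9%, and the difference between coding-exon and intron peaks was -6.70 points (-8.06 to -4.97). Peaks with the FOXA motif had a median GC content of 47.8%, and the part of the higher GC content of coding-exon peaks in this difference was not tested. Together, 140 coding-exon peaks (16.1%, 13.7 to 18.7%) held the motif of CTCF, HNF4A or FOXA, and 4 held more than 1 of them. The other 730 peaks, with none of these motifs, had a median fold of 9.84 (9.36 to 10.2), which lay within the interval of each of the 3 motif groups (10.2, 7.82 to 11.1, for FOXA).

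The other motifs were above, near or below the level of coding windows with no peak. SP/KLF, the GC-box factors of promoters (GGGGCGG), was found at 5.52% of coding-exon peaks, 1.25% of coding windows with no peak and 27.7% of TSS peaks. Its difference from the coding windows was 4.27 points (2.94 to 5.99), larger than that of HNF4A (3.31) or FOXA (2.92). The part of the higher GC content of coding-exon peaks was not tested for SP/KLF or for any other motif of this paragraph. CEBP (TTGCNNAA), a family of liver and stress factors, was found at 5.29% against 4.56%, a difference of 0.723 points (-0.579 to 2.42). AP-1 (TGANTCA), the FOS and JUN dimer, was found at 3.33% against 2.44%, a difference of 0.895 points (-0.110 to 2.31). For CEBP and AP-1 the intervals include 0, and both motifs were more frequent at intron peaks (8.13% and 6.97%). The GATA motif, AGATAA, was at 2.07% of coding-exon peaks, below the 4.11% of coding windows with no peak, and TEAD (ACATTCC) at 2.64% against 1.40%. The MYC/MAX E-box CACGTG was found at 3.10% against 1.62% and the E-box CAGCTG at 12.6% against 8.70%, a difference of 3.95 points (1.90 to 6.32). HNF1 (GTTAATNAT), a liver homeodomain factor, had a match at 2 coding-exon peaks, in TGOLN2, which encodes a protein of the trans-Golgi network, with a fold of 17.9, and in DST with 14.4. The remaining motifs had from 1 to 18 matching peaks each. Those with fewer than 10 were NRF1 (GCGCATGCG) with 1, NFI with 2, YY1 (AAGATGGCG) with 3, ONECUT (ATCGAT or ATTGATT) with 6, GABPA/ETS (CCGGAAGT) with 6 and PU.1 (GAGGAAGT) with 7. NFY (CCAATCA or CCAATGA) had 18. A start codon in a strong context for translation (GCCACCATG or GCCGCCATG) lay at 3.

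**Figure D3:**
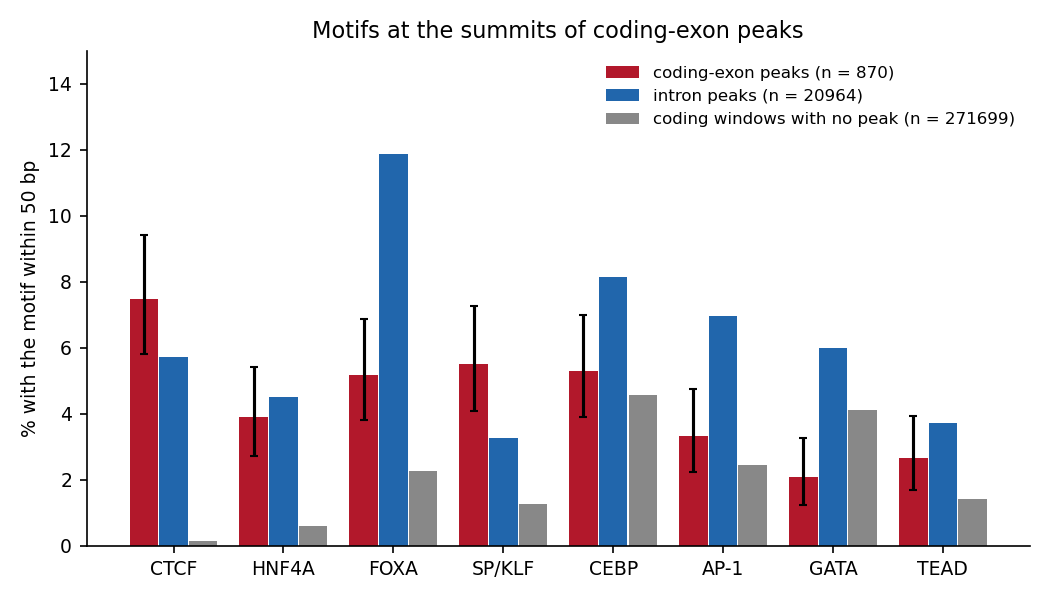
Share of coding-exon peaks, intron peaks and coding windows with no peak (y axis, %) that hold each motif (x axis) within 50 bp of the summit or window centre. Whiskers on the coding-exon bars are exact 95% binomial intervals; CTCF reaches 7.47% of coding-exon peaks and 0.138% of windows with no peak, while FOXA is at 5.17% of coding-exon peaks and 11.9% of intron peaks.

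The motifs lay at a distance from the summit that depended on the factor. Counted over 100 bp to either side, coding-exon peaks held 77 CTCF matches, whose median distance from the summit was 27.5 bp. The most matches, 25, lay 25 to 37.5 bp away, 15 lay within 12.5 bp, and 7 lay beyond 50 bp. In intron peaks the CTCF distances had a median of 24.5 bp, with the same bin the fullest. The 51 HNF4A matches had a median of 33 bp and the 87 FOXA matches of 45 bp, against 31 and 36 bp in intron peaks. A CTCF match near a coding-exon summit was thus usually beside the summit base rather than on it, and FOXA matches were spread over the whole 100 bp.

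**Figure D4:**
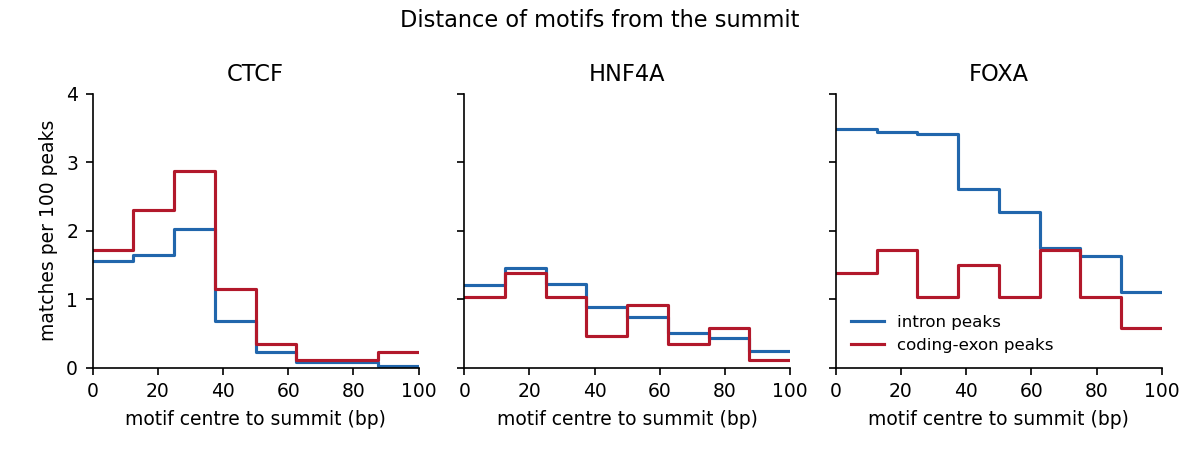
Motif matches per 100 peaks (y axis) by the distance of the motif centre from the summit (x axis, bp, in steps of 12.5 bp) for CTCF, HNF4A and FOXA, at coding-exon peaks and at intron peaks. CTCF matches at coding-exon peaks are most frequent 25 to 37.5 bp from the summit, and the FOXA line of coding-exon peaks lies below that of intron peaks throughout.

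Counted the other way, from motif to peak, a CTCF match in coding sequence was in a peak less often than a CTCF match in an intron. Of 519 CTCF matches in coding exons over 1000 bp from a TSS, 70 lay wholly inside a peak (13.5%, 10.7 to 16.7%). In introns it was 18.8% (17.9 to 19.7%) and in other exons 25.4% (22.3 to 28.7%). The difference between coding exons and introns was -5.33 points (-8.16 to -2.00). Letters can match a motif without a bound factor in any of these places, and no binding was measured here. The cause of the difference was not tested.

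For HNF4A and FOXA the shares in coding exons and introns were close. Of 2101 HNF4A matches in coding exons, 56 (2.67%, 2.02 to 3.45%) lay in a peak, against 2.56% in introns, a difference of 0.109 points (-0.512 to 0.899). Of 6829 FOXA matches, 73 (1.07%, 0.839 to 1.34%) lay in a peak, against 1.12% in introns (-0.05 points, -0.27 to 0.228). For AP-1 it was 45 of 7495 (0.600%), for CEBP 84 of 14745 (0.570%) and for HNF1 2 of 409 (0.489%). Since 0.528% of coding bases lay in peaks, the AP-1, CEBP and HNF1 shares were 1.14, 1.08 and 0.926 times that level, whereas those of CTCF, HNF4A and FOXA were 25.5, 5.05 and 2.03 times it. In introns, where 0.354% of bases lay in peaks, the same ratio was higher for each of these motifs. It was 2.03 for AP-1, 1.40 for CEBP, 2.31 for HNF1, 53.2 for CTCF, 7.23 for HNF4A and 3.15 for FOXA. No intervals were computed for these ratios. The HNF1 share in coding exons, on 2 matches in a peak, had a wide interval (0.0593 to 1.76%).

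**Figure D5:**
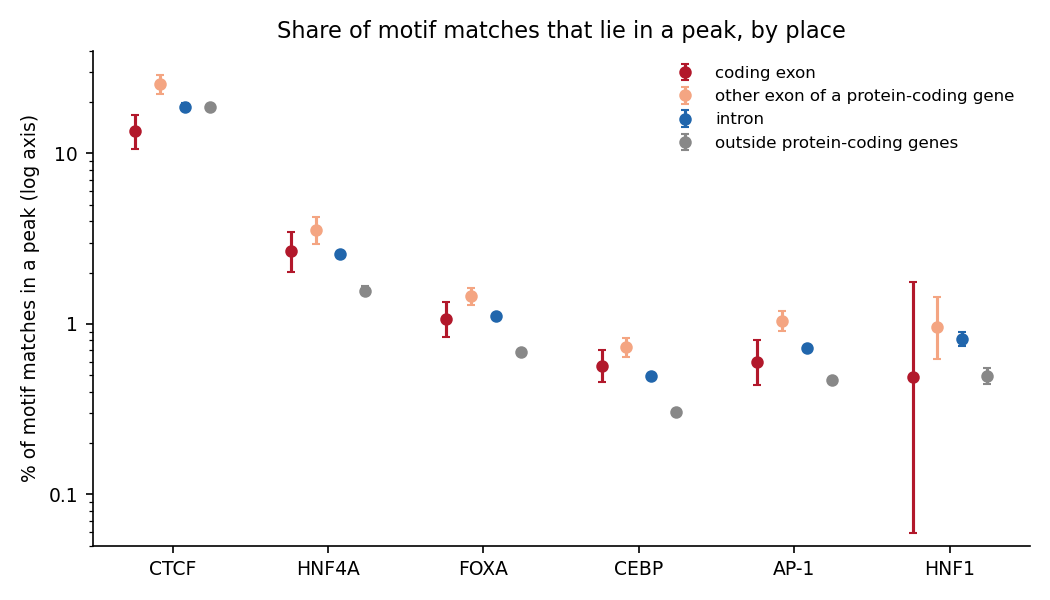
Share of the matches of each motif that lay wholly inside a peak (y axis, %, log axis) in 4 places over 1000 bp from a canonical TSS (x axis, by motif). Dots are shares and whiskers exact 95% binomial intervals; CTCF is at 13.5% in coding exons, below its 18.8% in introns, and the coding-exon and intron shares of HNF4A and FOXA overlap.

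The 12 bp CTCF match was placed against the reading frame in 450 cases that lay in 1 canonical coding exon. On the strand of the gene, 27 of 189 matches were in a peak (14.3%, 9.63 to 20.1%), and on the opposite strand 33 of 261 (12.6%, 8.87 to 17.3%). Positions were counted in the direction of the gene. Of matches on the gene's strand, 107 began at codon position 3, of which 21 (19.6%, 12.6 to 28.4%) were in a peak, and 69 began at codon position 1, of which 3 (4.35%, 0.906 to 12.2%) were. At codon position 2 began 13, and 3 of them were in a peak. The intervals of positions 1 and 3 did not overlap, on 3 and 21 matches, while that of position 2 (5.04 to 53.8%) overlapped both. Of matches on the opposite strand, those that began at codon position 1, 2 and 3 were in a peak in 11 of 81, 18 of 126 and 4 of 54 cases. Their intervals all overlapped. No allowance was made for comparing several pairs of positions.

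Many coding-exon peaks lay near an annotated start of a noncanonical transcript, which the rule did not use. Within 1000 bp of the summit, 295 peaks (33.9%, 30.8 to 37.2%) had such a start, against 27.4% of the coding windows with no peak, a difference of 6.54 points (3.46 to 9.75). Within 100 bp it was 107 peaks (12.3%, 10.2 to 14.7%) against 8.57%. For 283 peaks the start belonged to the host gene, and for 115 of these it was the start of a protein-coding transcript. In 12 cases only another gene had a start there. Peaks with a start of the host gene within 1000 bp had a median fold of 9.71 and a median GC content of 61.2%. The 575 peaks with no start within 1000 bp had 9.84 and 57.2%.

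The highest coding-exon peak of all lay in INPP5B, which encodes an inositol polyphosphate phosphatase, from 37931734 to 37932061 of chromosome 1. It had a fold enrichment of 31.6 with 84 fragments at the summit, its summit was coding only in alternative transcripts, and an annotated start lay 127 bp away. The next was in exon 8 of 11 of FBXL19, a CpG-binding F-box protein, with a fold of 29.6. ALDH5A1, the succinic semialdehyde dehydrogenase of GABA breakdown, followed with 29.1, and a start was annotated 3 bp from its summit. LRRC36, a gene of a leucine-rich repeat protein, had 28.5 and 73 fragments, with a CEBP motif whose centre lay 7 bp from the summit. MEGF11, a cell-surface protein with EGF repeats, had 28.1 in an alternative coding exon.

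PC was also among the 10 highest. Its peak spanned 240 bp on chromosome 11 from 66868769 to 66869008, with a fold of 27.9 and 52 fragments, in exon 10 of 23 at codon 321 of 1178. The nearest annotated start was 3134 bp away. PHKB had a fold of 27.8 at codon 73 of 1093, with its HNF4A motif 23 bp from the summit and an annotated start 50 bp away. DST, which encodes the cytoskeletal linker dystonin, and MYO1C, a class I myosin, both had 26.4. The 10 highest peaks were higher than at least 98.6% of the intron peaks.

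Among peaks with a motif, PMF1, a kinetochore gene, was the highest with CTCF (23.8), followed by C17orf50 and by GRHPR (22.5), the glyoxylate reductase of liver. The summits in PMF1 and GRHPR were coding only in alternative transcripts. DMGDH, at 26.3 with 44 fragments, held both the HNF4A and the CEBP motif. With HNF4A, SORL1 had 21.1. With FOXA, SMU1 had 23.8, MCM4, which encodes a subunit of the replicative helicase, had 21.9, and RILPL1 had 18.3. GPR171, an orphan receptor gene, had a CEBP motif and a fold of 24.9 in its only coding exon. The highest peaks with AP-1 were in ATG4B, an autophagy protease (20.2), TNRC6B, a factor of miRNA silencing (18.2), and LMAN1L, a lectin-like gene (17.8). In ATG4B the motif itself lay outside the coding exon, in the adjoining sequence.

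The peaks fell on 818 of 19103 protein-coding genes, or 4.28% (4.00 to 4.58%), and on 863 of 182691 separate blocks of coding sequence, or 0.472%. Of the host genes, 772 had 1 peak, 40 had 2 and 6 had 3. Those with 3 were GRIN2C, HMCN2, LTB4R, MACF1, MYO15B and SYNE1. GRIN2C, a subunit of the NMDA glutamate receptor, had folds of 9.81 and 15.3 in its last exon and 18.0 in exon 3 of 13. In LTB4R, the leukotriene B4 receptor, all 3 summits lay in the only coding exon, at codons 7, 113 and 228, with folds of 4.74, 8.90 and 10.7. MYO15B, an unconventional myosin gene, had 24.1, 8.60 and 17.01. MACF1 and SYNE1, giant linkers of the cytoskeleton, had highest folds of 20.3 and 16.03, and HMCN2, the extracellular protein hemicentin, had 11.5. Genes with 2 peaks included SRCIN1, an inhibitor of SRC kinase, with 16.7 and 18.6 in neighbouring exons, and IGDCC4, an immunoglobulin superfamily gene, with 19.1 and 13.1.

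Longer coding sequences had a peak more often. From the shortest to the longest of 4 equal groups of genes by coding length, 1.80, 2.60, 4.06 and 8.69% had at least 1 coding-exon peak. Host genes did not have an open start site more often than other genes. A TSS peak here was any peak with a base within 1000 bp of the gene's TSS. A coding-exon peak with its summit just past that limit, as in TMEM158, could therefore itself count as one. A TSS peak was present at 491 of the 818 (60.02%, 56.6 to 63.4%), against 62.5% of all protein-coding genes, and the difference from genes without a coding-exon peak was -2.63 points (-6.10 to 0.743). In each of these 4 groups the host genes were also lower. The shares were 48.8% (37.9 to 59.9) against 56.9% in the shortest group and 55.6% (46.5 to 64.6) against 58.0% in the second. They were 59.8% (52.53 to 66.75) against 66.83% in the third and 63.8% (58.9 to 68.4) against 69.5% in the longest. The interval included the value of the other genes in the shortest and second groups and lay below it in the third and longest. No TSS peak was present at the other 327 of the 818 host genes.

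Some genes of hepatocyte function had a coding-exon peak, and the shares could not be told from that of all genes. Of 41 plasma protein genes 3 had one (7.32%, 1.54 to 19.9%): AGT with a fold of 18.1 and 66 fragments, ITIH1, an inter-alpha-trypsin inhibitor heavy chain, with 6.94, and AHSG, fetuin-A, with 5.82. Of 39 genes of adult hepatocyte metabolism 4 had one (10.3%, 2.87 to 24.2%), with 5 peaks. Among them were UGT2B7, a glucuronosyltransferase, with 11.3 and 10.6, FBP1, the gluconeogenic fructose bisphosphatase, with 10.3, and HPD, which degrades tyrosine, with 5.07. Lipid and cholesterol genes had one in 4 of 40 (10.0%): NPC1, which exports cholesterol from lysosomes, with 26.1, LRP1, a lipoprotein receptor, with 14.8, LPIN1, a phosphatidate phosphatase, with 11.7, and ACACB, an acetyl-CoA carboxylase, with 10.9. None of the 40 liver transcription factor genes had one, which allows a share of up to 7.50% by a limit of 3 counts and 8.81% by the exact interval, although 37 had a TSS peak. None of 29 housekeeping genes had one (up to 10.3% by 3 counts and 11.9% by the exact interval), and all 29 had a TSS peak. All these shares have wide intervals that include the 4.28% of all genes.

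Genes of other cell types also had coding-exon peaks. Of 28 blood cell genes, 4 had one (14.3%, 4.03 to 32.7%): SPI1, which encodes the myeloid factor PU.1, with 16.2 and 30 fragments in its last exon, PTPRC, the leukocyte antigen CD45, with 8.51, CORO1A with 8.31 and MPO, myeloperoxidase, with 6.34. Of 30 muscle genes 3 had one, among them NEB, the giant thin-filament protein nebulin (15.6), and MYH6, a cardiac myosin heavy chain (9.52). Of 28 neuronal genes 1 had one, CAMK2A (6.63). Of 29 genes of other liver cells 3 had one, EPCAM (10.2), PECAM1 (8.12) and VWF (6.48). Of the peaks named here, those in SPI1, NEB and EPCAM were above the median fold of coding-exon peaks.

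Gene families were compared per Mb of canonical coding sequence over 1000 bp from a TSS. On this scale all protein-coding genes had 30.1 peaks per Mb, since the 870 peaks, including those coding only in another transcript, were divided by 28.951 Mb of canonical coding sequence. The plasma protein, adult hepatocyte metabolism and lipid genes had 36.1, 87.2 and 31.5 per Mb, from 3, 5 and 4 peaks. Blood cell genes had 113 per Mb from 4 peaks, the highest value of the 22 lists. Genes of other liver cells had 42.4 from 3 peaks, muscle genes 11.9 from 3 and neuronal genes 8.83 from 1. C2H2 zinc finger genes had 19 hosts among 609 (3.12%, 1.89 to 4.83%) and 17.1 per Mb, led by ZNF662 (18.0), ZNF219 (17.8) and ZNF451 (17.3). Olfactory receptor genes had 1 among 399 (0.251%, 0.006 to 1.39%), OR6A2 with 10.2, and 5.51 per Mb. The clustered protocadherin genes had none of 53, which allows up to 5.66% by 3 counts and 6.72% by the exact interval. The list of 151 homeobox genes had 3 hosts (1.99%), PAX8 (7.89), POU6F1 (7.55) and PAX7 (6.80). That list was incomplete, since the homeobox genes SHOX2 (23.3), RAX (20.4), OTP (14.6), VSX1 (9.96) and UNCX (8.34) were hosts outside it. The share of 1.99% is thus not that of the whole family. Keratin genes had 1 host of 55, KRT12 (5.95). Chromatin regulators had 6 of 39 (15.4%, 5.86 to 30.5%), which was the only one of the 22 lists besides olfactory receptors whose interval left out 4.28%. Its highest peaks were in HDAC5, a histone deacetylase (17.3), BPTF, a nucleosome remodelling subunit (15.99), ARID1B, a SWI/SNF subunit (15.7), and NSD2, a histone methyltransferase (9.59). Per Mb, however, chromatin regulators had 23.9 peaks, below the level of all genes.

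Solute carrier genes were near the level of all genes, with 15 of 327 (4.59%) and 30.6 per Mb. SLC5A2, the renal glucose transporter SGLT2, was the highest (22.3, 46 fragments), with a start annotated 41 bp from its summit, followed by SLC8A3 (14.3), SLC44A4 (12.4) and SLC6A18 (11.8). ATP-binding cassette transporters had 2 of 44, ABCA7 and ABCC3, with folds of at most 5.95. Among extracellular and adhesion genes the hosts were 3 of 42 collagens (COL5A2 at 11.5), 3 of 17 mucins (MUC3A at 15.0), 3 of 16 basement membrane genes (LAMB4 at 12.1), 4 of 42 listed cadherins outside the clusters (CDH22 at 11.9) and 2 of 27 plexins and semaphorins (SEMA4B at 11.6). The cadherin list left out the cadherin-related genes CDHR1 (8.65), CDHR4 (5.75) and CDHR2 (5.25), which were also hosts. Mucins include repeated coding sequence, and the sharing of reads between repeats was not tested. These lists had from 16.8 to 40.4 peaks per Mb.

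Within the coding sequence the peaks followed the coding bases, with a small shift to the last exon. Of the 870 summits, 787 (90.5%) lay in the coding sequence of the canonical transcript and 83 (9.54%) only in that of another transcript. Of the 787, 573 (72.8%, 69.6 to 75.9%) were in internal coding exons, which hold 74.7% of coding bases over 1000 bp from a TSS. The last coding exon held 149 (18.9%, 16.3 to 21.8%), against 15.8% of bases, with a density of 32.5 per Mb against 26.5 in internal exons. First coding exons held 35 (4.45%, against 5.21% of bases) and genes with a single coding exon 30 (3.81% against 4.23%). The median fold was 10.8 in last, 9.68 in internal and 8.94 in first coding exons.

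Most of the peaks reached beyond their exon. The median share of a peak's bases in coding sequence was 78.6%, and 278 peaks (31.95%, 28.9 to 35.2%) lay wholly in coding sequence. The exons with a summit had a median coding length of 177 bp, and the summit lay a median of 50 bp from the nearer edge, or 54.4% of the way from edge to middle (51.2 to 58.2%). Coding blocks with a summit had a median length of 179 bp and those without one 121 bp. The density was 28.8 peaks per Mb in blocks under 200 bp, 39.4 from 200 to 500 bp, 26.1 from 500 to 1000 bp and 17.01 in longer blocks. The nearest canonical TSS of any gene was a median of 9729 bp away.

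By chromosome the density ran from 14.0 peaks per Mb of canonical coding sequence on chromosome 13 (8 peaks) to 45.3 on chromosome 16 (56 peaks). As for the gene families, the counts include peaks coding only in another transcript. Chromosomes 15 (15.9) and 4 (18.8) were also low, and chromosomes 14 (40.6), 17 (40.8) and 6 (41.1) high. The median GC content of coding windows was 41.3% on chromosome 13 and 56.7% on chromosome 16, but 45.8% on chromosome 6, so the order by density was not the order by GC content. Copy number in HepG2 was not measured here, and its part in these densities was not tested.

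At the distance limit of the rule, the nearest peaks inside the set were those of PPP1R3E and B3GAT2, each 1016 bp from a TSS, with folds of 16.8 and 18.0, and of TMEM158 at 1017 bp with 13.8. PPP1R3E had the most fragments of all 870, 196. Just too near to a TSS were coding summits in ENSG00000268655 (989 bp, fold 10.96), NFATC4 (974 bp, 11.4) and PDLIM2 (962 bp, 13.0). In all, 470 further coding summits lay within 1000 bp of a TSS. The 50 bp at the summit occurred more than once in hg38 for 6 of the 870 peaks as an exact copy, and copies with mismatches were not searched.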

How the data were processed

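Peaks of 1 bulk ATAC-seq library of HepG2 (0.1% FA, cryopreserved) were analysed. By the study's methods, adapters were trimmed with cutadapt, Bowtie2 mapped the reads to GRCh38, samtools removed duplicates, and the authors ran MACS2 for the peaks. The MACS2 version, and whether read ends were shifted to the Tn5 cut site, are not given in the sources used here; a shift would move summits by a few bases. The names of the peaks point to a filtered short-fragment alignment, so summit fragments do not give the sequencing depth. The submitters' processing notes also name bcl2fastq and deepTools 3.5.5.

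The authors deposited, per peak, a score that is the -log10 q-value times 10 and was not used here. Their deposited ratio is the fold of the summit over local background. A -log10 p-value, a -log10 q-value and the summit position of each peak were also deposited by the authors.

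Summits were placed on GENCODE 44 and hg38, and 0 of the nuclear or mitochondrial peaks ran past the end of its hg38 sequence. A TSS is the start of the canonical transcript. Summit fragments k and background b were solved from fold = (k + 1)/(b + 1) and the Poisson p; the result was whole within 0.01 for 868 of the 870 peaks, and 18 had a second whole solution. Control windows were centred on tiles of coding sequence over 1000 bp from a TSS, with no peak within 100 bp of the centre. They spanned 101 bp for motifs and 201 bp for GC and CpG, so in short blocks they held flanking sequence. For 19 motifs, exact letters were searched on both strands within 50 bp. Shares have exact binomial intervals, differences of shares Newcombe intervals and medians order-statistic intervals, at a level of 95%; they cover counting error only, and with 1 library no test was run. Functions were tested on simulated data. The tools were scipy 1.17.1, numpy 2.4.6, pandas 2.3.3 and matplotlib 3.10.9 under Python 3.11.15.

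Named were the 10 highest peaks with a summit sequence found once in hg38, the 10 genes with the most peaks, up to 4 peaks of each gene list and up to 3 of each of 6 motifs, by fold, and 3 peaks to either side of the distance limit. HPD, named to complete its list, was chosen after its values were seen. Sequences on chromosome 8, and 2 genes that the rule names, are not reported here. The members, gene lists, motifs and this rule were chosen with earlier results of these data known. Alternatives were other distances, coding sequences, starts, windows and peak thresholds.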

Additional observations from a re-analysis of the deposited data

Results flagged for a closer look

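The rule takes chromosomes 1-22 only, so data outside it hold a further signal: 17 summits on chromosome X lay in coding sequence over 1000 bp from a canonical TSS. They were among 1295 peaks on that chromosome. Their median fold enrichment was 10.7, with a range from 5.10 to 15.0, which lies within the range of 2.98 to 31.6 of the 870 coding-exon peaks. None of them entered any value of the report.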

How the results depend on the processing

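Of 72 recomputed values, 50 stayed within the interval of the reported value (or, for the number of peaks, within a factor of 1.5) and 22 moved; the cause was not tested. With a distance of over 500 bp from a TSS, the median GC content was 60.7%, the share of peaks with a transcript start within 1000 bp 42.8%, the share of genes with a coding-exon peak 4.93%, that of hosts with a TSS peak 64.7% and that of internal exons 67.5%. With over 2500 bp, the share of genes was 3.73% and that of internal exons 76.3%. With coding sequence of canonical transcripts only, the share of genes was 3.88%. Over 1000 bp from the start of any transcript, 575 peaks were left, with a GC content of 57.2%, 2.88% of genes and 69.4% in internal exons. A start lay within 500 bp of 25.4% of the peaks. Within 25 bp of the summit, which searches a shorter window, CTCF was at 2.64%, HNF4A at 1.72% and FOXA at 2.53% of the peaks. With a TSS window of 500 bp, 55.9% of hosts had a TSS peak. With at least 11 fragments at the summit, an alternative chosen after seeing the data, the median fold was 11.7, the width 171 bp, the GC content 61.2%, the share of genes 3.03% and that of internal exons 69.4%. The comparison within the middle GC range was also chosen after seeing the data. No paired analysis was possible because the values come from 1 library with no replicate, and none could be left out. At most 10 fragments lay over the summits of 261 peaks, and the effect of sequencing depth was not tested.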
